A study of Caenorhabditis elegans with 6 samples.

Results

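The vacuolar proton pump (V-ATPase) is an enzyme that acidifies lysosomes, endosomes and secretory vesicles and also works at the surface of some epithelial cells. Its cytosolic V1 sector hydrolyses ATP, and this turns a ring of c subunits in the membrane-embedded V0 sector against the a subunit, which carries the path for protons. In Caenorhabditis elegans the a subunit is encoded by several genes with different tissue patterns, of which vha-6 is known from the apical membrane of the intestine, vha-5 from the excretory canal and epidermis, vha-7 from epidermis and uterus, and unc-32 from neurons and other cells. The 10 genes described here encode the V0 sector. They are the c subunit genes vha-1, vha-2 and vha-3, the c'' subunit gene vha-4, the a subunit genes unc-32, vha-5, vha-6 and vha-7, the d subunit gene vha-16 and the e subunit gene vha-17. They were found by symbol among 20189 protein-coding genes in the deposited count table, and all 10 were among the 5641 genes with enough counts to be tested. The set is defined by subunit name and not by a cut on a value, but it was proposed with the drug comparison of these samples known. The fold changes and adjusted p-values below therefore describe the genes and are not independent evidence.

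The samples were whole hermaphrodites at L4, the last larval stage, all of the genotype rpl-36A(P55Q)/mIn1, with a changed copy of a gene for a large-subunit ribosomal protein opposite a chromosome II balancer. Eggs were placed on plates without cycloheximide (CHX), an inhibitor of translation elongation, or on plates with 500 µg/ml, at 23 °C. The no_CHX group (3 samples) was collected after 2 days and the CHX group (3 samples) after 3 days, so drug and age cannot be told apart, and no group with the unaltered rpl-36A on both homologues was analysed here. Whether the replicates are separate cultures is not in the labels, and the p-values speak for the spread of these 6 samples alone, technical spread included. Libraries held 313767 to 414781 counts, and a count of 3 corresponded to 7.22 to 10.6 CPM (counts scaled to a library size of 1000000, from each library's counts in tested genes and its TMM factor). The V0 genes had between 663 and 794 counts together in a sample without CHX and between 588 and 754 with it, so single members rest on 15 to 267 counts per sample. In whole animals, fewer cells of a type and less RNA per cell cannot be told apart. The oocyte and germline marker genes summed to between 4438 and 5532 CPM without CHX and to between 11618 and 12568 CPM with it. Of these 10 genes 8 were higher on CHX by the test given below, beside 10.3% of all tested genes. The groups thus differed in gonad transcripts although both carry the L4 label.

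Animals grown on CHX had less transcript of 3 V0 genes and more of 1. The e subunit gene vha-17, the intestinal a subunit gene vha-6 and the c subunit gene vha-2 were lower, and the a subunit gene vha-7 was higher (edgeR quasi-likelihood test, adjusted p under 0.05 over all tested genes). Among all 5641 tested genes 25.2% passed this test, 10.3% higher and 14.9% lower, so 4 of 10 called members stand beside that background and nothing is read from the difference. The other 6 members did not pass, and all of them had fitted log2 fold changes below 0, as had 2777 of the 5641 tested genes. The value of vha-5 changed sign when no_CHX replicate 1 was left out. The median log2 fold change of the 10 genes was -0.50, beside 0.02 over all tested genes. With DESeq2 the split was again 1 higher and 3 lower, and with library totals in place of TMM factors it was 1 higher and 2 lower. Over all genes, 579 were higher and 840 lower, and with library totals 851 and 605, when the all-gene median became 0.18.

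**Figure D1:**
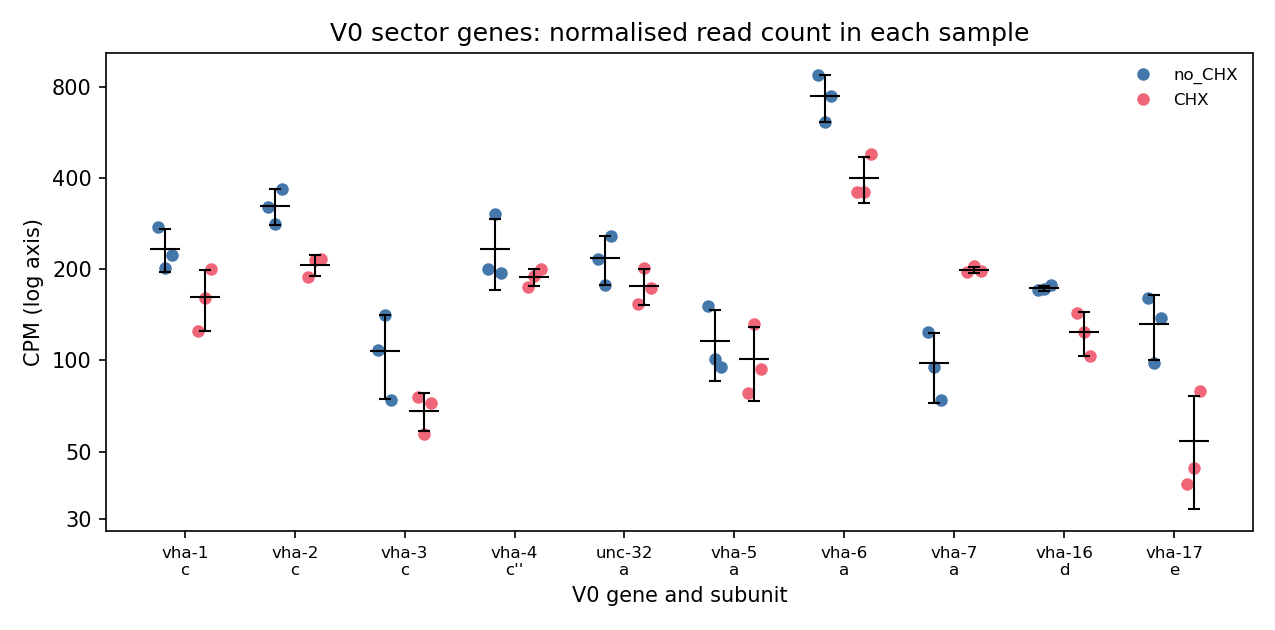
Normalised read count (CPM, log axis) of the 10 V0 genes in each sample, with no_CHX samples in blue and CHX samples in red; bars give the mean and SD of 3 samples. The CHX points of vha-7 (196 to 205 CPM) lie above its no_CHX points (74.2 to 125 CPM), and those of vha-6 (360 to 479 CPM) lie below its no_CHX points (609 to 875 CPM).

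Of the 4 a subunit genes, vha-6 fell, vha-7 rose and unc-32 and vha-5 did not pass the test. The gene vha-6 (WBGene00006915; WBcel235 chromosome II, 11435212 to 11438464, minus strand, 6 exons) was the V0 gene with the most counts. It stood at 875, 609 and 742 CPM in no_CHX replicates 1, 2 and 3 and at 360, 360 and 479 CPM in the CHX replicates. Every CHX sample lay below every no_CHX sample. The means were 742 ± 133 and 400 ± 68.3 CPM (SD, n = 3), a fall of 1.85-fold (log2 fold change -0.89, SE 0.17, 95% interval -1.24 to -0.54; edgeR adjusted p 2.71e-04). Its replicates spread well beyond counting noise, with a chi-square of 6.12 per degree of freedom within groups. That value, the highest of the 10 genes, grows with the number of counts. As coefficients of variation the spread was 17.9% without and 17.1% with CHX, not the widest of the 10 genes. The call held under all 13 alternative settings (adjusted p 4.10e-05 to 0.00360).

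The gene vha-7 (WBGene00006916; chromosome IV, 12640447 to 12650652, plus strand, 25 exons) encodes another a subunit and was counted over 3630 coding bases. It had 38, 31 and 21 counts in the no_CHX replicates and 75, 79 and 82 in the CHX replicates. These counts correspond to 125, 94.9 and 74.2 CPM without the drug and 196, 205 and 197 CPM with it. The groups did not overlap, and the 3 CHX samples had a coefficient of variation of 2.40%, against 25.8% without CHX. Counting error alone is wider than 2.40% at 75 to 82 counts, so this closeness is not read as tight replication. The means were 97.9 ± 25.3 and 199 ± 4.79 CPM (SD, n = 3), and vha-7 thus rose 2.03-fold (log2 fold change 1.02, SE 0.26, 95% interval 0.49 to 1.55; edgeR adjusted p 0.00403). The adjusted p ran from 0.00101 to 0.0262 over the 13 alternative settings.

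The remaining a subunit genes did not pass the test. The transcripts of unc-32 (chromosome III, 8905615 to 8911749), a gene in which mutations cause uncoordinated movement, stood between 178 and 258 CPM without CHX and between 154 and 202 CPM with it, and the groups overlapped. Its log2 fold change was -0.30 with a 95% interval from -0.76 to 0.17 (edgeR adjusted p 0.362). For vha-5 (chromosome IV, 8303968 to 8307369) the ranges were 95.4 to 151 CPM and 78.3 to 132 CPM. Its log2 fold change was -0.19 with an interval from -0.81 to 0.43 (adjusted p 0.679), so a fall or a rise within this interval remains compatible with the data. The sign of the vha-5 value depended on 1 library, being 0.046 without no_CHX replicate 1. Annotation lists 6 transcripts for unc-32, of which the counted one covers 2715 of 3067 coding bases, so isoforms with other exons are partly left out.

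**Figure D2:**
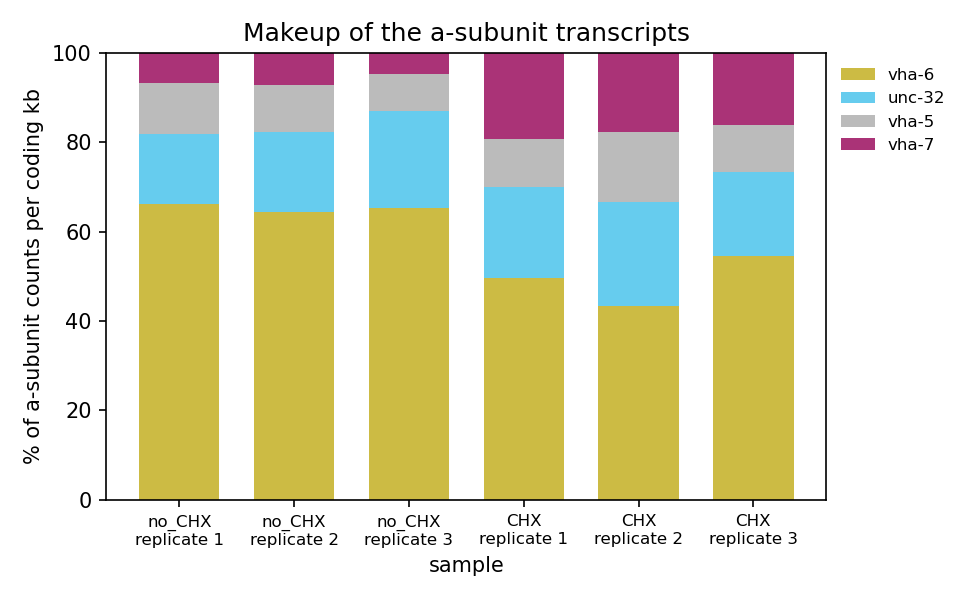
Share of each a subunit gene in the summed a subunit counts per coding kilobase of each sample, as stacked bars that add to 100%. The vha-7 segment takes 4.67% to 7.17% in the no_CHX samples and 16.1% to 19.3% in the CHX samples.

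Within a sample, the shares of the a subunit genes do not depend on how libraries are scaled to each other. Per coding kilobase, vha-6 held 66.3%, 64.3% and 65.3% of a subunit counts in the no_CHX replicates and 49.7%, 43.4% and 54.5% in the CHX replicates. Its mean share was 65.3% ± 0.971 without and 49.2% ± 5.59 with the drug (SD, n = 3), and the groups were apart. The share of vha-7 was 6.74%, 7.17% and 4.67% without CHX and 19.3%, 17.6% and 16.1% with it, means of 6.19% ± 1.34 and 17.7% ± 1.62. The ratio of vha-7 to vha-6 per coding kilobase was accordingly 0.0949 ± 0.0208 and 0.363 ± 0.060, with no overlap. The shares of unc-32 (18.4% ± 3.05 and 20.8% ± 2.25) and of vha-5 (10.1% ± 1.56 and 12.4% ± 2.96) overlapped between groups. These shares are given without a test because the genes were chosen with this comparison known. In both groups vha-6 stayed the most abundant a subunit transcript, and the order of vha-5 and vha-7 at the bottom changed.

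The c subunit forms the rotating ring, and vha-2 and vha-3 are known to encode the same protein, so reads may be shared between them if their coding sequences are similar; the counted coding length is 483 bases for each. The gene vha-2 (WBGene00006911; chromosome III, 9782164 to 9783212, plus strand, 3 exons) stood at 321, 282 and 368 CPM without CHX and at 188, 215 and 216 CPM with it. The groups did not overlap, and the means were 324 ± 43.0 and 207 ± 16.1 CPM (SD, n = 3). The fall was 1.56-fold (log2 fold change -0.64, SE 0.20; edgeR adjusted p 0.0167). The gene no longer passed when no_CHX replicate 3 was left out (adjusted p 0.0642), without CHX replicate 1 (0.0818), without CHX replicate 3 (0.0520), with library totals (0.0656) and without a low-count filter (0.0559), and the range over all 13 settings was 0.00804 to 0.0818.

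The neighbouring c subunit gene vha-1 (WBGene00006910; chromosome III, 9781243 to 9782057, 1 exon) lies on the same strand as vha-2, 106 bases before it. It stood at 275, 202 and 223 CPM without CHX and at 125, 161 and 200 CPM with it. The groups were apart by a small margin, between 200 and 202 CPM, and the log2 fold change of -0.52 (SE 0.23) did not pass (edgeR adjusted p 0.0975). For vha-3 (chromosome IV, 2314589 to 2315990, minus strand) the samples ranged from 74.2 to 141 CPM and from 57.0 to 75.7 CPM, which overlap, and the log2 fold change was -0.66 with an SE of 0.32 (adjusted p 0.137). A gap of 21 bases separates vha-3 from vha-11, a V1 gene for the C subunit on the same strand. The value of vha-11 was similar in size, at -0.56 with an SE of 0.19 (edgeR adjusted p 0.0331).

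The makeup of the vha-2 and vha-3 pair was the same within its spread. The gene vha-2 supplied 74.9% ± 8.27 (SD, n = 3) of their summed counts in the no_CHX group and 75.1% ± 3.88 in the CHX group, with single samples from 66.7% to 83.2% and from 71.3% to 79.0%. The gene vha-4 (chromosome II, 7878083 to 7879406, minus strand) encodes the c'' subunit, a proteolipid of the ring distinct from c. It ranged from 194 to 303 CPM and from 175 to 200 CPM, and the groups overlapped, with no_CHX replicate 3 at 194 CPM below CHX replicate 3 at 200 CPM. The highest sample was no_CHX replicate 2, at 303 CPM. Its log2 fold change was -0.31 with a 95% interval of -0.77 to 0.14 (edgeR adjusted p 0.326).

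The e subunit has the shortest coding sequence of the 10 genes. Its gene vha-17 (WBGene00009882; chromosome IV, 9321801 to 9322528, plus strand, 3 exons) was counted over only 258 coding bases. It had 49, 32 and 39 counts without CHX and 15, 17 and 33 with it, or 161, 98.0 and 138 CPM against 39.2, 44.1 and 79.4 CPM. Every CHX sample was lower than every no_CHX sample, although CHX replicate 3 stood well above the other CHX samples. The means were 132 ± 31.7 and 54.2 ± 21.9 CPM (SD, n = 3), a fall of 2.41-fold and the largest fitted fall among the 10 genes (log2 fold change -1.27, SE 0.34, 95% interval -1.95 to -0.58; edgeR adjusted p 0.00574). The log2 fold change ran from -1.64 to -1.07 over the 13 settings, with adjusted p from 0.00353 to 0.0408. The d subunit gene vha-16 (chromosome I, 5079911 to 5082279, minus strand, 7 exons), whose product joins the ring to the stalk of the enzyme, had the smallest coefficient of variation of the 10 genes without CHX, 1.95%. Counting error alone is wider than that at its 50 to 56 counts, so nothing is read from this closeness. The gene stood at 170, 171 and 177 CPM without CHX and at 144, 124 and 103 CPM with it. The groups were apart, but the log2 fold change of -0.48 (SE 0.25) did not pass (adjusted p 0.162). In all, 6 of the 10 genes had groups that did not overlap, beside 39.7% of all tested genes. The 1 that was higher stands beside 19.5% and the 5 that were lower beside 20.2%.

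**Figure D3:**
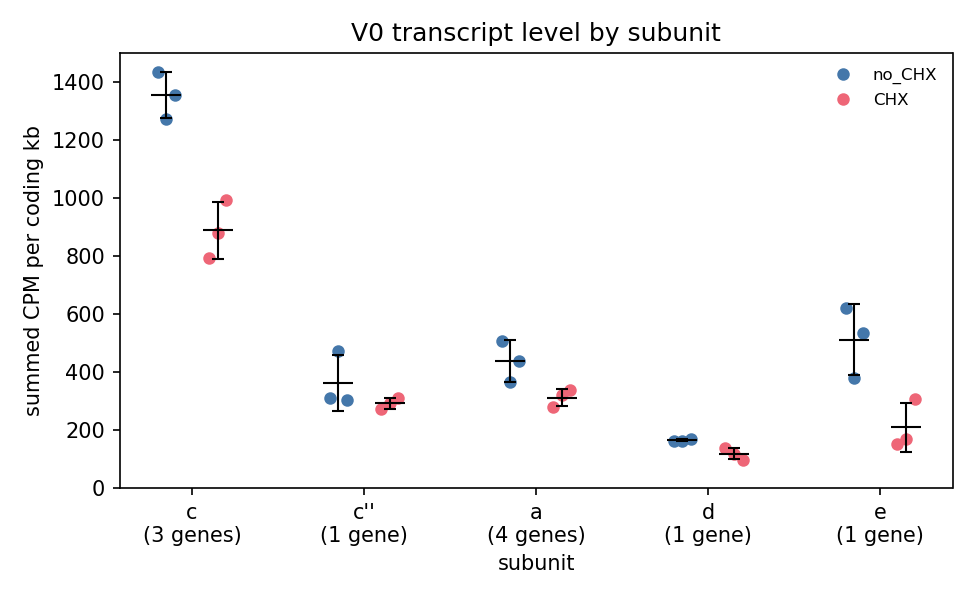
Summed CPM per coding kilobase of the genes for each V0 subunit, with no_CHX samples in blue and CHX samples in red and bars for mean and SD of 3 samples. The c subunit genes are the most abundant in both groups (1353 and 888 CPM per coding kilobase on average), and the d subunit gene is the least (166 and 119).

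Levels of different genes can be compared per coding kilobase. Without CHX the order was vha-2 (670 ± 89 CPM per kilobase, SD, n = 3), vha-17 (512 ± 123), vha-1 (460 ± 74.5), vha-4 (362 ± 95.4), vha-6 (286 ± 51.2), vha-3 (223 ± 69.0), vha-16 (166 ± 3.23), unc-32 (80.1 ± 14.8), vha-5 (44.2 ± 11.6) and vha-7 (27 ± 6.97). Neighbours in this order from vha-2 down to vha-16 lay within their spread of each other (mean ± SD), as did vha-5 and vha-7. The steps from vha-16 to unc-32 and from unc-32 to vha-5 exceeded it. Among the tested genes with a known coding length, vha-2 stood at percentile 95.4 of the no_CHX level and vha-7 at percentile 20.5. With CHX, vha-17 at 210 ± 85.0 CPM per kilobase came after vha-2 (428 ± 33.2), vha-1 (319 ± 73.3) and vha-4 (293 ± 19.3), and vha-7 at 54.9 ± 1.32 came before vha-5 at 38.7 ± 10.6. By subunit, the c genes vha-1, vha-2 and vha-3 together were at 1353 ± 79.3 and 888 ± 99.3, the a genes at 437 ± 71.9 and 313 ± 30.2, and the d gene at 166 ± 3.23 and 119 ± 19.3 CPM per kilobase.

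The V1 sector, the catalytic part of the pump, is the closest set for comparison. Of 9 V1 genes 4 were lower and 0 higher by edgeR's test, beside 14.9% and 10.3% of all tested genes. At an unadjusted p under 0.05 there were also 0 higher with edgeR, DESeq2 and limma-voom. The share of all tested genes at that unadjusted threshold was not counted, here or below. The median log2 fold change of the V1 genes was -0.51, beside -0.50 for the V0 genes. The H subunit gene vha-15 went from 538 ± 59.7 to 258 ± 28.0 CPM (log2 fold change -1.06), the A subunit gene vha-13 from 1052 ± 178 to 603 ± 31.7 CPM (-0.80) and the B subunit gene vha-12 from 1828 ± 468 to 1085 ± 20.8 CPM (-0.75). The largest adjusted p of these 3 genes was 2.55e-04. The fourth was vha-11, a call lost in 8 of 13 alternative settings, among them DESeq2 (adjusted p 0.0639), the replicate block (0.0540), library totals (0.119), no low-count filter (0.121) and the omission of no_CHX replicate 1 (0.0551), CHX replicate 1 (0.119), CHX replicate 2 (0.0528) or CHX replicate 3 (0.145).

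The V1 genes without a call were vha-8, vha-9, vha-10, vha-14 and vha-18, with log2 fold changes of -0.49, -0.09, -0.51, -0.36 and 0.28. Of these, vha-18 is a second H subunit gene, at 39.8 ± 13.9 and 48.9 ± 4.48 CPM. The share of all counts held by the V0 genes was 0.211% ± 0.0140 in the no_CHX and 0.167% ± 0.0146 in the CHX samples (SD, n = 3). That of the V1 genes was 0.397% ± 0.0365 and 0.272% ± 0.00344. The ratio of summed V0 to summed V1 level per coding kilobase was 0.749 ± 0.0340 and 0.748 ± 0.0943, a difference far inside the spread.

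**Figure D4:**
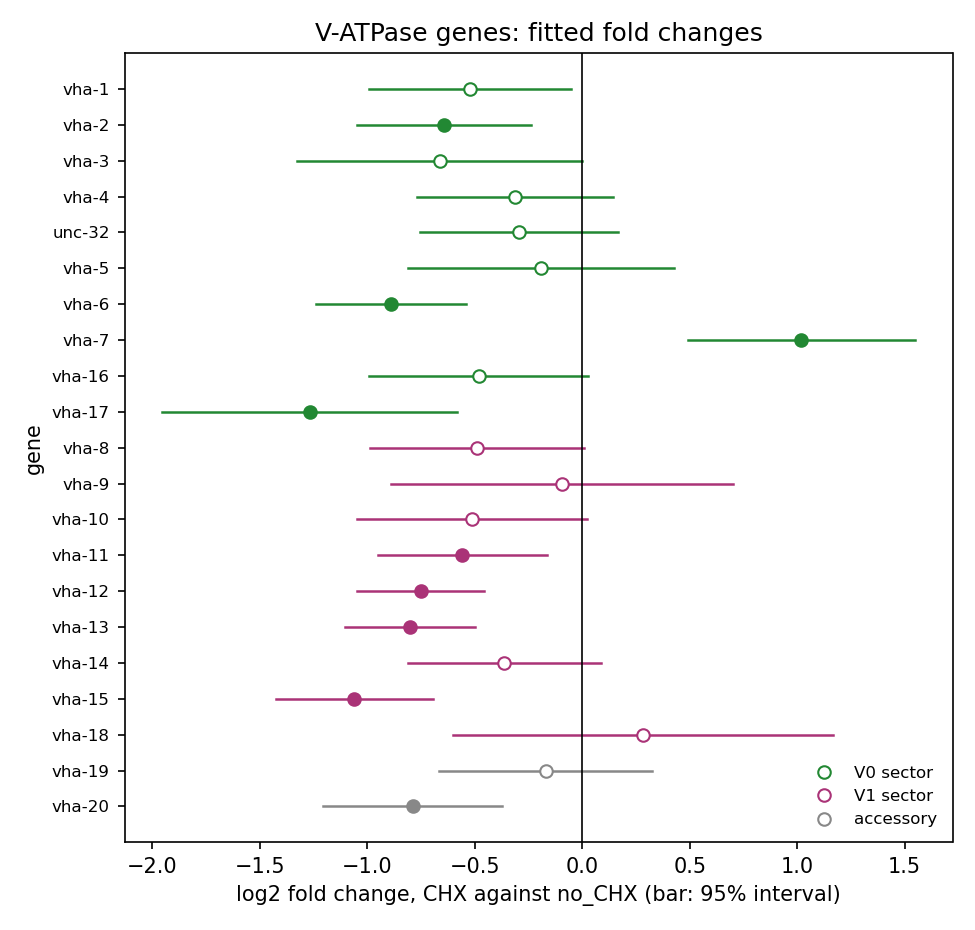
Fitted log2 fold change of CHX against no_CHX for the V0 genes (green), V1 genes (purple) and the accessory genes vha-19 and vha-20 (grey), with 95% intervals from the edgeR fit; filled circles passed the test over all genes. Among these genes, vha-7 at 1.02 is the filled circle to the right of 0, and vha-17 at -1.27 lies farthest to the left.

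Accessory and neighbouring parts of the pathway were measured as well. Of 4 accessory and assembly genes 1 was lower, beside 14.9% of all tested genes. This was vha-20, whose mammalian counterpart is the prorenin receptor. It stood at 307 ± 10.9 and 178 ± 23.5 CPM (log2 fold change -0.79, SE 0.20, edgeR adjusted p 0.00451). The accessory gene vha-19 (log2 fold change -0.17) and the genes rbc-1 (-0.46) and rbc-2 (0.16), related to regulators of pump assembly, did not pass. Without no_CHX replicate 2, 2 of these genes were lower. Of 8 genes for the lysosomal Ragulator complex and TORC1 kinase, which use the pump as a platform in nutrient sensing, 4 had enough counts. The Ragulator genes lmtr-2 (12 counts without and 22 with CHX), lmtr-3 (8 and 33) and lmtr-5 (4 and 16) were not tested. Nor was rheb-1 (17 and 27). The tested raga-1, ragc-1, let-363 and daf-15 gave 0 calls by edgeR, DESeq2 or limma-voom, beside 25.2% of all tested genes with edgeR. At an unadjusted p under 0.05, 1 gene was higher with each method. With edgeR this was daf-15, with a log2 fold change of 0.51 (adjusted p 0.0535). At an adjusted p under 0.05, 1 gene of this list was higher with library totals, upper-quartile factors, the stricter filter or without CHX replicate 2. Over all genes, 851, 614, 521 and 421 were higher in these settings.

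Of 16 listed lysosomal genes outside the pump, 12 were tested, and 1 was higher and 1 lower, beside 10.3% and 14.9% of all tested genes. Their median log2 fold change was 0.09. Among them scav-3, for a scavenger receptor, was higher with 15 counts over the no_CHX samples and 61 over the CHX samples (adjusted p 0.0445), and ncr-1, for a cholesterol transporter related to NPC1, was lower at 73.4 ± 15.5 and 32.8 ± 5.81 CPM (0.0368). Neither call held in DESeq2 (0.0772 and 0.0717). The scav-3 call was also lost without no_CHX replicate 1 or 2 or any CHX replicate, and the ncr-1 call with any single replicate left out except no_CHX replicate 1, with library totals (0.0706), without a low-count filter (0.0947) and with the replicate block (0.0521). The cathepsin L gene cpl-1 stood at 804 ± 74.9 and 730 ± 92.5 CPM and rab-7, for a GTPase of late endosomes, at 186 ± 32.1 and 158 ± 11.1 CPM, both without a call. The regulator gene hlh-30, whose mammalian relative TFEB controls lysosomal and V-ATPase genes, had a log2 fold change of -0.39 (SE 0.31, adjusted p 0.373).

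Markers of several tissues moved in the following ways, and their part in the V0 values was not tested. No markers were listed for the uterus, named above for vha-7. Of 10 intestine markers 7 were tested and 5 were lower, beside 14.9% of all tested genes, with a median log2 fold change of -0.74. Their summed level was 3100 to 3776 CPM without CHX and 2032 to 2249 CPM with it. The intestinal actin gene act-5 went from 1467 ± 38.6 to 823 ± 73.4 CPM (log2 fold change -0.83; adjusted p 1.74e-05), beside -0.89 for the intestinal vha-6. The intermediate filament gene ifb-2 had a log2 fold change of -0.61. The tested markers without a call were ges-1 (log2 fold change -0.33) and erm-1 (-0.05). The count of lower intestine markers was 3 without no_CHX replicate 2 or CHX replicate 3. The gut transcription factor gene elt-2, with too few counts for the test, had 19 counts without CHX and 6 with it, and mtl-2 had 1 and 0.

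Of 10 epidermis markers 5 were tested, with 1 higher and 1 lower, beside 10.3% and 14.9% of all tested genes. The transcription factor gene lin-26 rose, from 19.8 ± 1.42 to 60.5 ± 10.2 CPM, and the molting gene mlt-10 fell, from 380 ± 62.9 to 182 ± 93.9 CPM. Their adjusted p were 0.0119 and 0.00147, and the call of lin-26 was lost without CHX replicate 3 (0.0647). The summed epidermis level was 665 to 882 CPM and 461 to 794 CPM, which overlap. Of 10 excretory canal markers 3 were tested and 0 called, beside 25.2% of all tested genes. There were also 0 at an unadjusted p under 0.05 with edgeR, DESeq2 and limma-voom, but with 3 genes tested nothing is read from this. The canal marker sums were 138 to 184 and 172 to 202 CPM. Of 14 neuron markers 5 were tested and 0 called, beside the same 25.2%, with the same 0 at an unadjusted p. In 3 other settings 1 neuron marker was lower at an unadjusted p under 0.05. These were no low-count filter (14 markers tested), no_CHX replicate 1 left out (6) and CHX replicate 1 left out (7). The neuron marker sums were 371 to 515 and 327 to 376 CPM. All 10 body wall muscle markers were tested and 9 were lower, a count that fell to 4 on library totals and also with CHX replicate 3 left out, to 5 without a low-count filter, with the replicate block or without no_CHX replicate 2, and to 6 with DESeq2 or without no_CHX replicate 1, CHX replicate 1 or CHX replicate 2. Their sums were 11415 to 16273 and 8579 to 9170 CPM. The 9 lower muscle markers stand beside 14.9% of all tested genes. The median log2 fold change of the muscle markers was -0.60, beside -0.74 for the intestine markers and -0.50 for the V0 genes. No listed marker of these tissues was at 0 in all 6 samples.

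The likeness of the V0 genes' profiles across the 6 samples is given as a description, because the samples share the drug and age difference. Pearson's r of each gene with the mean standardized log2(CPM + 2) of the other V0 genes was highest for vha-6 (0.93), vha-17 (0.90), vha-1 (0.89) and vha-2 (0.87). It was between 0.34 and 0.59 for vha-4, vha-5, unc-32, vha-3 and vha-16, and -0.83 for vha-7. The 5 genes outside the set with the profile most like the mean of the V0 genes over the 6 samples were unc-70, for the spectrin beta chain (r = 0.998), pdha-1, for pyruvate dehydrogenase (0.99), pqn-74 (0.99), the collagen gene col-91 (0.99) and Y92H12BL.1 (0.99). Of these, unc-70 was at 642 ± 95.2 CPM without CHX and 340 ± 39.5 with it.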

How the data were processed

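RNA of whole L4 hermaphrodites was sequenced in 6 samples, grouped and numbered by their titles. Trizol extraction, RNase H removal of ribosomal RNA and a SMARTER library kit are named per the labels' protocols. The deposited table holds the authors' raw counts of reads in the coding sequence of 1 transcript per gene, and its row names give WBcel235 coordinates, per the file headers. DESeq2 and the same build appear in the submitters' processing notes. How reads were aligned, assigned to strands, deduplicated or shared between copies is not given in the sources used here, so reads of vha-2 and vha-3 may be shared, as may those of unc-32 and an antisense non-coding gene that overlaps 38 of its coding bases. Reads are not independent molecules, so counting noise covers counting error only.

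The main test used edgeR 4.0.16 under R 4.3.3: filterByExpr (minimum count 10, minimum total 15), TMM factors, robust quasi-likelihood fits of treatment and Benjamini-Hochberg adjustment over 5641 genes, which held 94.1% of counts. Standard errors were obtained from the log2 fold change and the F statistic. The common biological coefficient of variation was 19.0%. The test was checked on simulated data with the same spread setting for every gene and fewer changed genes than were called here. That check therefore does not cover differences in spread between genes. Within groups, replicates differed by more than sampling noise (chi-square per degree of freedom 2.24 to 3.49). Coding lengths and exons came from Ensembl release 115 of the same build, and were found for 5516 tested genes, for vha-3 and vha-4 by the name of the coding sequence. DESeq2 1.42.0 and limma 3.58.1 were alternatives, and figures were drawn with matplotlib 3.10.9. The V0 genes and all lists were chosen with earlier results of these data known. Other genes named were drawn from those a rule allowed. These were the accessory and V1 genes, the 2 lowest-p and the 2 most abundant members of each list, and the 5 genes most like the V0 profile. Named outside the rule after their values were seen were elt-2, mtl-2, hlh-30, ges-1, erm-1, ragc-1, lmtr-2, lmtr-3, lmtr-5 and rheb-1.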

Additional observations from a re-analysis of the deposited data

How the results depend on the processing

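The 13 alternatives were DESeq2, library totals, upper-quartile factors, limma-voom, no low-count filter, a stricter filter (minimum count 20), a replicate block and each of the 6 replicates left out. The vha-6, vha-7 and vha-17 calls held in all of them. The count of V0 genes higher was 1 throughout, and the count lower was 2 to 3; V1 genes lower were 3 to 4. With replicates left out, all genes called higher were 383 (without CHX replicate 3) to 544, and lower 601 to 804. With replicates left out, the vha-5 log2 fold change ran from -0.41 to 0.046 (the latter without no_CHX replicate 1), and that of vha-9 from -0.37 to 0.48 (above 0 without no_CHX replicate 2 or, at 0.13, CHX replicate 2); vha-9 was at 0.058 with library totals; neither gene was called in any setting. With raw counts in place of counts per coding kilobase, the a subunit shares were 63.2% for vha-6 without CHX, and 8.37% and 22.8% for vha-7 without and with CHX. Replicate numbers did not pair the samples (correlations of same-numbered deviations -0.05, -0.03 and -0.01, against -0.02 to 0.05 for other numbers). With the replicate block 494 genes were higher and 731 lower, and the V0 split stayed 1 higher and 3 lower. At 15 to 49 counts per sample, as for vha-17 and vha-3, small changes were not detectable.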
